A study of Mus musculus with 16 samples.

Results

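Glycolysis, glycogen metabolism and the pentose phosphate pathway were followed as 1 module of 41 genes in adipose tissue from lean and obese mice. The members were chosen by gene symbol, as the enzymes, transporters and regulators named for these routes, and they held 144 of the 130343 entries of the expression table. All 16 libraries came from 8 male wild-type C57BL/6J mice, each of which gave 1 library of inguinal subcutaneous adipose tissue (SAT) and 1 of mesenteric visceral adipose tissue (VAT). The 4 obese mice had eaten a high-fat diet with 42% of its calories as fat and 0.2% cholesterol for 12 to 14 months from 10 weeks of age, and the 4 lean mice had eaten a normal laboratory diet. Both inguinal depots of a mouse were combined, and visible vessels were removed. Each tissue and diet therefore had 4 libraries, 1 per mouse, and all were whole tissue.

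Glucose that enters an adipocyte is phosphorylated by a hexokinase and can then take 3 routes. Glycolysis carries it to pyruvate, with phosphofructokinase as the step that fructose 2,6-bisphosphate switches on, and gives the glycerol backbone of triglyceride. Glycogen synthase and the branching enzyme store it as glycogen, which the phosphorylases release, and white adipose tissue keeps a small glycogen pool that turns over with feeding. The pentose phosphate pathway oxidises it through glucose-6-phosphate dehydrogenase to make NADPH, which fatty acid synthesis uses, and rearranges the sugars through transketolase and transaldolase.

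The counts were made per RefSeq transcript, 1 entry for each, and this decided which members could be read. The 17 members with a single entry had mean levels of 7.16 to 920 CPM (counts per 1000000 counts of a library). The 24 members with several entries reached a mean of 64.0 CPM at most when all their entries were summed, and Hk3 and Ldhb had no count at all. These include Gapdh, Pkm, Aldoa and Ldha, glycolytic enzymes that are abundant in most tissues, so a low count in a member with several entries was not read as low expression. Each member was followed by the entry with its highest mean level. This entry passed the filter of more than 1 CPM in at least 3 libraries in 31 members, all 17 with a single entry among them. The 10 that did not pass were Hk3, Pfkm, Pfkp, Aldoc, Gapdh, Ldhb, Slc16a3, Pfkfb4, Pgm2 and Ppp1r3b. Library totals ran from 1256082 counts (VAT, lean replicate 1) to 16614407 (SAT, obese replicate 3), and the next lowest, VAT from obese replicate 1, had 2247737. Tpi1, Pgk1, Pgam1, Eno1, Gapdh and Ldha have processed pseudogene copies in the mouse genome, and how reads shared with such copies were treated is not given in the sources used here, so their levels carry that uncertainty.

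The high-fat diet was set against the normal diet in each tissue to ask how these routes respond to obesity. In SAT from obese mice 1 member rose and 5 fell, while in VAT from obese mice 12 fell and none rose. Genes of glycogen storage and release were among those that fell, with Pygl, Pygb and Gys1 called in both tissues and Gbe1, Gys2, Ugp2 and Ppp1r3c called in VAT. The steps from glucose 6-phosphate to pyruvate gave no call in either tissue among the 9 members tested.

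**Figure D1:**
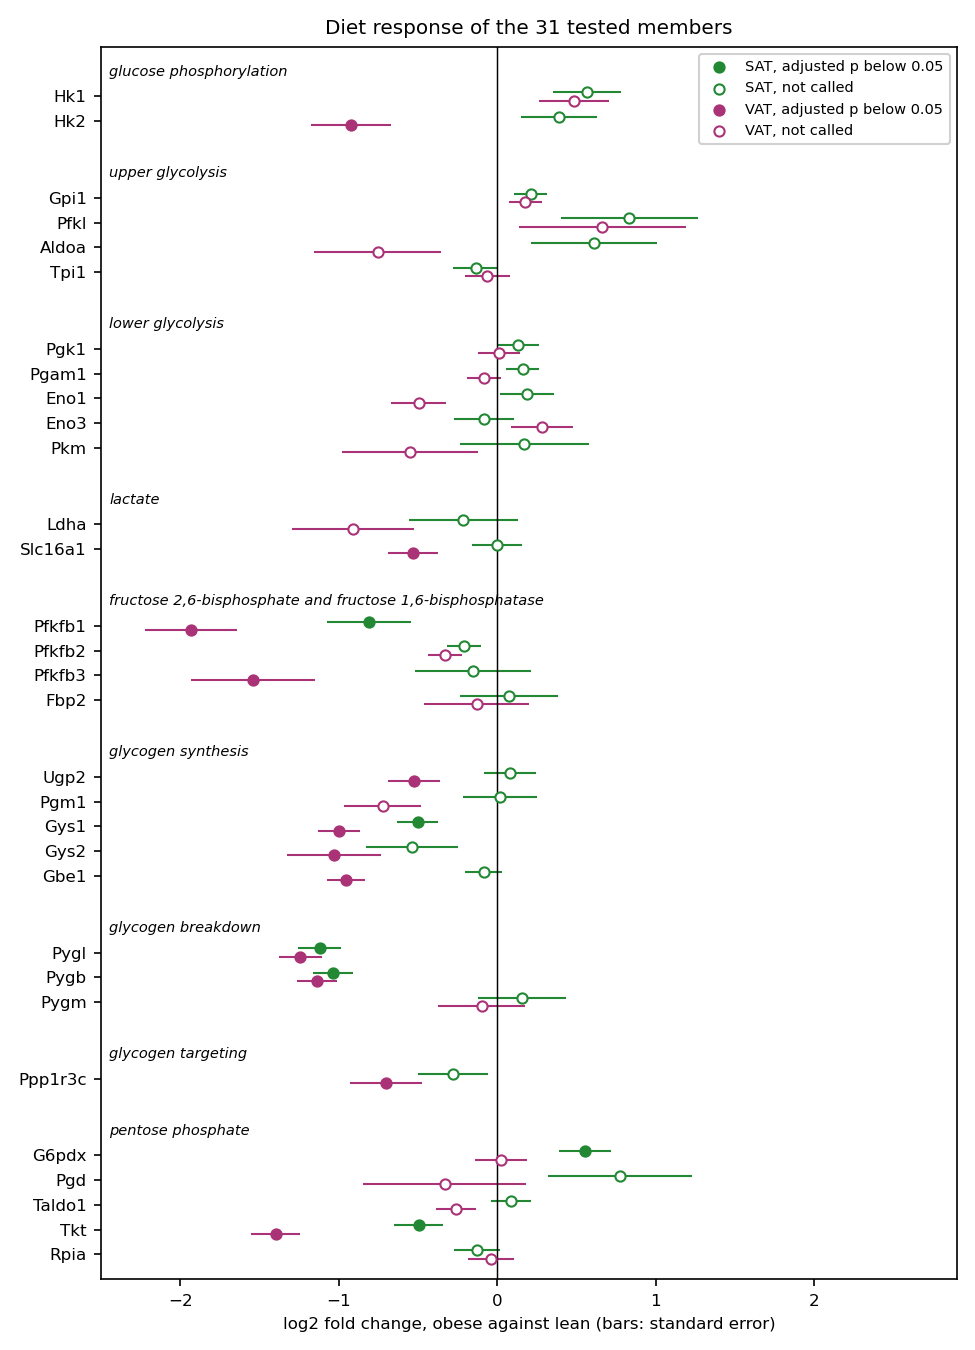
The log2 fold change of obese against lean mice (horizontal axis) is shown for the 31 tested members, grouped by role, in SAT (green) and VAT (purple), with bars for the standard error and filled points for an adjusted p below 0.05. Filled VAT points lie left of 0 from Hk2 down to Tkt, and the only filled point right of 0 is G6pdx in SAT.

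A call is an adjusted p below 0.05 over all 13288 tested entries. In SAT, 6.21% of all tested entries were called higher and 4.84% lower in obese mice, and the members' shares were 3.23% (1 of 31) and 16.1% (5 of 31). In VAT, 6.84% of all entries were called higher and 4.08% lower, and the members' shares were 0 of 31 and 38.7% (12 of 31). For the count of 0, edgeR's test gave 1 member higher in VAT at an unadjusted p under 0.05, and DESeq2 called 0. The median log2 fold change of the 31 members was 0.02 in SAT, beside 0.01 over all entries, and -0.53 in VAT, beside 0.02 over all entries. Calls beyond a log2 fold change of 1.5 in either direction were 0 in SAT, where 1.25% of all entries fell that far, and 2 in VAT (Pfkfb1 and Pfkfb3), where 0.835% did. The latter count was 1 without lean replicate 3, without obese replicate 4 and with counts summed per gene. The 5 members that fell in SAT were all among the 12 that fell in VAT. Leaving out 1 mouse moved these counts: 7 members fell in VAT without obese replicate 4, 3 fell in SAT without lean replicate 2 or 3 or obese replicate 3 or 4, and none rose in SAT without lean replicate 2 or 4 or obese replicate 3. Without the 2 VAT libraries of lowest depth, a setting chosen after seeing the data, 11 fell in VAT.

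Transcripts of glycogen breakdown genes fell with obesity in both tissues, in 2 of the 3 members. Pygl, the liver-type glycogen phosphorylase, lies on chromosome 12 (GRCm39, 70237585 to 70278262, minus strand), and Pygb, the brain-type phosphorylase, on chromosome 2 (150628628 to 150673685, plus strand). Each fell by more than 1 on the log2 scale in SAT and in VAT.

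In SAT, Pygl stood at 431, 498, 504 and 387 CPM in lean mice and at 182, 264, 186 and 204 CPM in obese mice. In VAT its levels were 701, 715, 852 and 658 CPM in lean and 259.7, 349, 322 and 305 CPM in obese mice. The groups did not overlap in either tissue, as for 7.64% of all tested entries in SAT and 5% in VAT in this direction. The log2 fold change was -1.12 ± 0.13 (SE, adjusted p = 1.06e-05) in SAT and -1.24 ± 0.13 (SE, adjusted p = 2.12e-06) in VAT.

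Pygb had more counts than Pygl in every library. Its SAT levels were 807, 934, 948 and 699.6 CPM in lean mice and 421, 459, 399 and 373 CPM in obese mice. In VAT they were 1002, 1144, 1299 and 1242 CPM in lean and 497, 568, 618 and 446 CPM in obese mice. Again no obese library reached the lowest lean one of its tissue, with a log2 fold change of -1.04 ± 0.13 (SE, adjusted p = 1.36e-05) in SAT and -1.14 ± 0.13 (SE, adjusted p = 2.92e-06) in VAT. Scaled by the length of the canonical transcript, lean VAT held 298 ± 33.1 CPM per kb of Pygb and 255 ± 29.3 of Pygl (SD, n = 4).

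Pygm, the muscle-type phosphorylase, had far fewer counts and gave no call with diet. Its SAT levels were 13.1, 7.85, 3.70 and 7.21 CPM in lean and 10.3, 10.3, 10.2 and 5.07 CPM in obese mice, and its log2 fold change was 0.16 ± 0.28 (SE, adjusted p = 0.784). Its VAT levels were 15.9, 13.8, 12.4 and 17.5 CPM in lean and 11.5, 13.0, 14.6 and 15.4 CPM in obese mice, with -0.10 ± 0.27 (SE, adjusted p = 0.878). The groups overlapped in both tissues.

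Transcripts of glycogen synthesis genes fell with obesity in VAT in 4 of the 5 tested members, and in SAT in 1 of 5. Gys1, the glycogen synthase of muscle and most other tissues (chromosome 7, 45084175 to 45106058, plus strand), fell in both. In SAT it went from 339.9, 329.7, 362 and 301 CPM in lean mice to 249, 252, 230.5 and 209.7 CPM in obese mice. In VAT it went from 317, 296, 373 and 328 to 159, 184, 194 and 119 CPM. Lean and obese libraries did not overlap in either tissue, and the log2 fold change was -0.50 ± 0.13 (SE, adjusted p = 0.0143) in SAT and -1.0 ± 0.13 (SE, adjusted p = 2.52e-05) in VAT.

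Gbe1, the glycogen branching enzyme (chromosome 16, 70110715 to 70366609, plus strand), fell in VAT and gave no call in SAT. Its VAT levels were 306, 346, 301 and 287 CPM in lean mice and 183, 166, 159 and 133 CPM in obese mice, with no overlap, a log2 fold change of -0.95 ± 0.12 (SE, adjusted p = 1.36e-05). In SAT the levels were 228, 291, 279.7 and 219.6 CPM in lean and 250.1, 232, 227 and 250.2 CPM in obese mice. These SAT groups overlapped fully, with -0.09 ± 0.12 (SE, adjusted p = 0.702).

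Ugp2, Gys2 and Ppp1r3c also fell in VAT, with less certainty. Ugp2 makes UDP-glucose, the substrate of glycogen synthase, and its VAT levels were 42.0, 44.7, 51.8 and 38.7 CPM in lean and 28.6, 32.3, 25.6 and 36.5 CPM in obese mice, with -0.53 ± 0.16 (SE, adjusted p = 0.0409). These are levels of 1 of its 2 entries. The other gave no call in VAT, at -0.44 ± 0.22 (SE, adjusted p = 0.234), and the summed counts gave -0.57 (adjusted p = 0.0118). Gys2, the liver-type synthase, stood at 5.10, 8.52, 17.5 and 16.3 CPM in lean and 4.96, 7.31, 5.63 and 6.14 CPM in obese VAT, with -1.03 ± 0.30 (SE, adjusted p = 0.0259). Ppp1r3c targets protein phosphatase 1 to glycogen, and its VAT levels were 96.8, 65.3, 160.1 and 82.8 CPM in lean and 63.4, 60.2, 68.1 and 57.4 CPM in obese mice, with -0.70 ± 0.22 (SE, adjusted p = 0.0465). Lean and obese VAT overlapped for Gys2 and Ppp1r3c but not for the leading entry of Ugp2.

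In SAT these 3 gave no call. The SAT levels of Ugp2 were 21.8, 30.0, 27.5 and 22.0 CPM in lean and 22.5, 22.5, 29.2 and 32.8 CPM in obese mice. Those of Gys2 were 6.83, 5.89, 13.6 and 9.96 CPM in lean and 8.05, 5.59, 5.36 and 5.92 CPM in obese mice, and those of Ppp1r3c 116, 55.4, 106 and 76.9 CPM in lean and 86.5, 75.8, 62.6 and 68.2 CPM in obese mice. All 3 overlapped between diets there. Pgm1, the phosphoglucomutase that links glucose 6-phosphate to glycogen, had -0.72 ± 0.24 (SE, adjusted p = 0.0589) in VAT and gave no call, but in the fit of all counts summed per gene, which leaves its own single entry as it is, it was -0.77 (adjusted p = 0.0491).

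The VAT calls of these 3 genes depended on single mice. Ugp2 was no longer called without lean replicate 2 or 3 or obese replicate 1, 2 or 3 (log2 fold changes -0.53, -0.44, -0.54, -0.58 and -0.44, adjusted p = 0.0789, 0.161, 0.0548, 0.0532 and 0.142). Gys2 was not called without lean replicate 3 or 4 or obese replicate 3 or 4 (-0.81, -0.91, -0.99 and -1.03, adjusted p = 0.1, 0.0921, 0.0747 and 0.0844). Ppp1r3c was not called without lean replicate 3, whose library was the highest, at a log2 fold change of -0.37 (adjusted p = 0.294), nor without any single obese mouse (-0.75, -0.72, -0.75 and -0.66 without replicates 1 to 4, adjusted p = 0.067, 0.0967, 0.0686 and 0.147). Without the 2 VAT libraries of lowest depth neither Ugp2 (-0.52, adjusted p = 0.0705) nor Ppp1r3c (-0.73, adjusted p = 0.0844) was called. Pygl, Pygb and Gys1 in both tissues and Gbe1 in VAT kept their calls whichever mouse was left out.

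**Figure D2:**
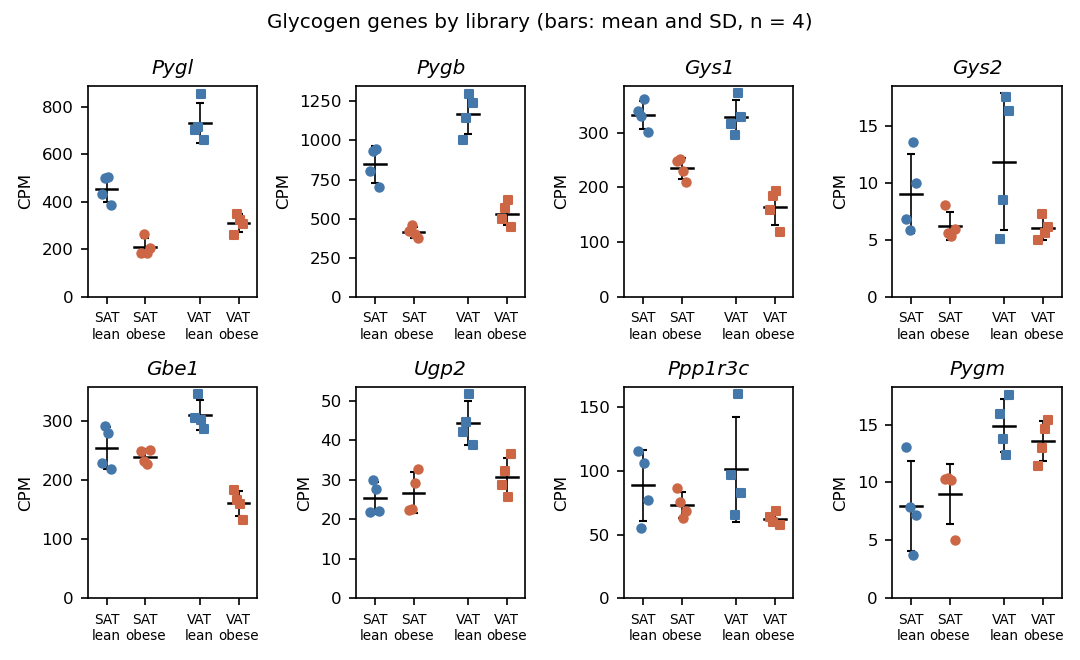
Levels of 8 glycogen genes (vertical axes, CPM scaled by TMM, from 0) are shown in each library for lean (blue) and obese (orange) mice, circles for SAT and squares for VAT, with bars for the mean and SD (n = 4). Obese points of Pygl, Pygb and Gys1 lie under all lean points in both tissues, those of Gbe1 and Ugp2 only in VAT, and those of Pygm overlap the lean points.

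The promoters of the 5 single-entry members that were called lower in VAT under every alternative run are shown as the regulatory sequence of genes that share this VAT call. In SAT the 5 did not all change, and Gbe1 gave no call there. Each is the 250 bases before the RefSeq start on GRCm38.p6, 5′ to 3′ on the gene's strand, with GC boxes (GGGCGG, or CCGCCC on the other strand) in capitals. The positions are chr12:70227684-70227933 (minus) for Pygl, chr2:150786546-150786795 (plus) for Pygb, chr7:45434589-45434838 (plus) for Gys1, chr16:70313699-70313948 (plus) for Gbe1 and chr14:30548881-30549130 (plus) for Tkt, which is described with the pentose phosphate genes.
Pygl: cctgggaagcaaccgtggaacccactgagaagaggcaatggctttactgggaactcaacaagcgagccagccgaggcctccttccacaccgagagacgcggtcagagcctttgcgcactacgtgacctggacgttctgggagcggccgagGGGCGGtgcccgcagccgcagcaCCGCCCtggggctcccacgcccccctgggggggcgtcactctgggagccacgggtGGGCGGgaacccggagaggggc
Pygb: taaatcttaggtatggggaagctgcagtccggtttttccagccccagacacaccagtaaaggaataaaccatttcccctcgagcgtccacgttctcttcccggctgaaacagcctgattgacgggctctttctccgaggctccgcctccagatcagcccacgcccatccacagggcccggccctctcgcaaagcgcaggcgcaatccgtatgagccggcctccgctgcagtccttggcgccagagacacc
Gys1: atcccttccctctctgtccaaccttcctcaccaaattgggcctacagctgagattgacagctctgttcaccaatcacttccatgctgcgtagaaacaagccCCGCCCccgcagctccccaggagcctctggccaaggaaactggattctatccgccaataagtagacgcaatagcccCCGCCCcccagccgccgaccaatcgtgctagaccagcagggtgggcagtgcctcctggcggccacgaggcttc
Gbe1: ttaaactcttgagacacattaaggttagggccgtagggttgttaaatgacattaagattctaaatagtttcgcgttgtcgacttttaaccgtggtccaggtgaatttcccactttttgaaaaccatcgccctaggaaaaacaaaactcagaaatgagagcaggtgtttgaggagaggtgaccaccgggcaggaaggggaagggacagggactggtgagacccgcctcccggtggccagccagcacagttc
Tkt: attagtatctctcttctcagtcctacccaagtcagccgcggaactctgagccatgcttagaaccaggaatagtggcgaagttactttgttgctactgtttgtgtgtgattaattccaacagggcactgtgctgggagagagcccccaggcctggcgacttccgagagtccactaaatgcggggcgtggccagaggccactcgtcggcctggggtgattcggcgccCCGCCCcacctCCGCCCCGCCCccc
Pygl and Tkt held 3 GC boxes each, 2 of those in Tkt sharing a base, Gys1 held 2, and Pygb and Gbe1 held none. A GC box stood in 32.7% of all 32851 promoters of this length and in 30 of the 58 promoters listed for 39 members (51.7%). Their GC content was 69.2% in Pygl, 60% in Pygb and in Gys1, 48.8% in Gbe1 and 59.6% in Tkt, beside medians of 52.4% over all promoters and 59.4% over those of the members. The E box CACGTG, the core of the sites that carbohydrate response factors and SREBP can bind, stood in none of the 5, in 7 of the 58 member promoters and in 6.02% of all. Gys1 held 4 CCAAT motifs, counted on both strands, a motif found in 33.8% of all promoters and in 21 of the 58. TATAAA stood in 2 of the 58 and in 12.4% of all, and the PPAR direct repeat in none of the 58 and in 11 of all. A match is only a match of letters on either strand.

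Of the 5 tested pentose phosphate members, 2 were called with diet. Tkt, transketolase of the non-oxidative branch (chromosome 14, 30270156 to 30299612, plus strand), fell in both tissues, and G6pdx, the NADPH-making entry enzyme (chromosome X, 73449857 to 73472819, minus strand), rose in SAT and gave no call in VAT. The others, Pgd, Taldo1 and Rpia, gave no call with diet in either tissue.

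In VAT, Tkt stood at 2159.9, 1486, 1684 and 1118 CPM in lean mice and at 632, 594, 619 and 599 CPM in obese mice. The lean libraries were spread widely and the obese ones lay close together, without overlap, and the log2 fold change was -1.40 ± 0.16 (SE, adjusted p = 2.8e-06). In SAT the levels were 727, 847, 749 and 742 CPM in lean and 613, 646, 462 and 450.0 CPM in obese mice. These did not overlap either, with -0.50 ± 0.15 (SE, adjusted p = 0.038).

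G6pdx stood at 899, 902, 1195 and 722 CPM in lean SAT and at 1337, 1254, 1399 and 1467 CPM in obese SAT. Every obese SAT library lay above every lean one, as for 9.61% of all tested entries in this direction, and the log2 fold change was 0.55 ± 0.17 (SE, adjusted p = 0.0351). In VAT the levels were 485, 764, 947 and 706 CPM in lean and 600.4, 886, 773 and 694 CPM in obese mice. The VAT groups overlapped, with 0.02 ± 0.17 (SE, adjusted p = 0.961).

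Both SAT calls depended on single mice. G6pdx was not called without lean replicate 2 or 4 or obese replicate 3 or 4 (log2 fold changes 0.53, 0.44, 0.54 and 0.52, adjusted p = 0.0966, 0.117, 0.0858 and 0.0883). Tkt was not called in SAT without lean replicate 2 or 3 or obese replicate 3 or 4 (-0.45, -0.51, -0.43 and -0.42, adjusted p = 0.115, 0.0749, 0.141 and 0.128). Its VAT call held whichever mouse was left out. Taldo1, transaldolase, had -0.26 ± 0.13 (SE, adjusted p = 0.207) in VAT. Rpia, ribose 5-phosphate isomerase, had -0.04 ± 0.15 (SE, adjusted p = 0.917) there.

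Among the genes that control entry into glycolysis, Hk2, Pfkfb1 and Pfkfb3 fell in VAT. Hk2, the insulin-responsive hexokinase, stood at 54.1, 29.3, 50.9 and 31.4 CPM in lean and 27.5, 27.1, 21.8 and 10.6 CPM in obese VAT, with no overlap and a log2 fold change of -0.92 ± 0.25 (SE, adjusted p = 0.019). In SAT it stood at 31.9, 32.1, 35.9 and 22.7 CPM in lean and 42.1, 50.9, 36.7 and 32.3 CPM in obese mice. The obese SAT libraries lay higher on average but overlapped the lean ones, with 0.39 ± 0.24 (SE, adjusted p = 0.33).

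Pfkfb1 and Pfkfb3 make or remove fructose 2,6-bisphosphate, the activator of phosphofructokinase, and both have several entries, so their levels are those of 1 transcript. Pfkfb1 stood at 9.55, 9.18, 12.2 and 7.82 CPM in lean and 2.29, 2.79, 2.77 and 2.13 CPM in obese VAT. This was the largest fall among the tested members in VAT, -1.93 ± 0.29 (SE, adjusted p = 0.000111), without overlap. In SAT, Pfkfb1 stood at 4.86, 8.41, 10.2 and 5.30 CPM in lean and 4.60, 2.22, 5.23 and 4.23 CPM in obese mice, which overlapped, with -0.81 ± 0.26 (SE, adjusted p = 0.0499).

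Pfkfb3, the inducible member of that family, stood at 5.73, 4.05, 8.23 and 9.69 CPM in lean and 3.44, 3.12, 2.67 and 0.939 CPM in obese VAT, with no overlap and -1.54 ± 0.39 (SE, adjusted p = 0.0113). Its SAT levels were 4.45, 3.23, 5.32 and 2.76 CPM in lean and 1.92, 5.91, 4.19 and 2.69 CPM in obese mice, which overlapped fully. Pfkfb2, a related enzyme, gave no call, with -0.33 ± 0.11 (SE, adjusted p = 0.0536) in VAT. In the fit of all counts summed per gene it was called in VAT, at -0.37 (adjusted p = 0.0216). Hk1, the hexokinase found in most cells, gave no call, with 0.57 ± 0.21 (SE, adjusted p = 0.0951) in SAT and 0.48 ± 0.22 (SE, adjusted p = 0.182) in VAT. Fbp2, a fructose 1,6-bisphosphatase, gave none either.

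The Pfkfb1 call in SAT was lost under 11 of 18 alternatives. It was not called without lean replicate 2 or 3 or any single obese mouse (log2 fold changes -0.74, -0.58, -0.88, -0.64, -0.95 and -0.82, adjusted p = 0.14, 0.221, 0.0746, 0.149, 0.0536 and 0.0924). Its VAT call held whichever mouse was left out. In VAT, Hk2 was not called without lean replicate 3 or obese replicate 4 (-0.78 and -0.67, adjusted p = 0.0911 and 0.0727) nor when the 8 VAT libraries were fitted alone (-0.95, adjusted p = 0.0516), and Pfkfb3 not without lean replicate 4 or obese replicate 4 (-1.35 and -1.22, adjusted p = 0.0536 and 0.0624).

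**Figure D3:**
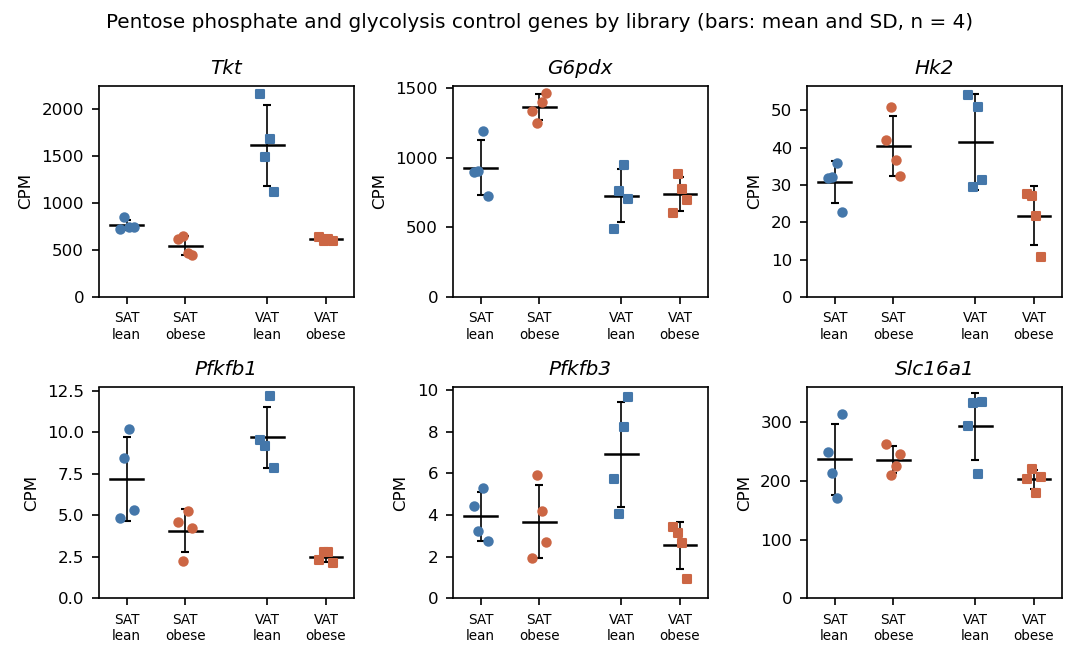
Levels of 2 pentose phosphate genes, 3 genes that control glycolysis and Slc16a1 (vertical axes, CPM scaled by TMM, from 0) are shown in each library, lean in blue and obese in orange, circles for SAT and squares for VAT, with bars for the mean and SD (n = 4). Obese VAT lies under lean VAT for Tkt, Hk2, Pfkfb1 and Pfkfb3, and obese SAT lies over lean SAT for G6pdx.

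No tested core glycolytic enzyme was called with diet, and the single-entry members Gpi1, Tpi1, Pgk1 and Pgam1 had small standard errors. Those of Pfkl, Aldoa and Pkm were wider, 0.40 to 0.53, and Pfkm, Pfkp, Aldoc and Gapdh were not tested. A lack of change was therefore not shown for these. Gpi1, glucose 6-phosphate isomerase, had 0.21 ± 0.10 (SE, adjusted p = 0.209) in SAT and 0.18 ± 0.10 (SE, adjusted p = 0.328) in VAT. Pgk1, phosphoglycerate kinase, had 0.13 ± 0.13 (SE, adjusted p = 0.581) and 0.01 ± 0.13 (SE, adjusted p = 0.977). Pgam1, phosphoglycerate mutase, had 0.16 ± 0.10 (SE, adjusted p = 0.371) and -0.08 ± 0.11 (SE, adjusted p = 0.692).

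Tpi1, triosephosphate isomerase, stood highest of the single-entry members per length in lean SAT, at 666 ± 95.2 CPM per kb (SD, n = 4). Its SAT levels were 1136, 841, 1136 and 1166 CPM in lean and 1030.0, 1141, 833 and 889 CPM in obese mice. Its VAT levels were 482, 518, 688 and 743 CPM in lean and 558, 632, 600.3 and 538 CPM in obese mice. The diets overlapped in both tissues.

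Eno1, enolase, has several entries. Its SAT levels were 65.4, 59.3, 61.2 and 71.4 CPM in lean and 72.6, 90.8, 69.2 and 59.9 CPM in obese mice, and its VAT levels were 58.6, 41.3, 69.7 and 77.6 CPM in lean and 33.2, 42.2, 45.0 and 52.7 CPM in obese mice. The VAT fold change of -0.50 ± 0.18 (SE, adjusted p = 0.0734) gave no call, and in the fit of all counts summed per gene it was -0.54 (adjusted p = 0.045), although the other entries of Eno1 add almost no counts. Eno3, Pfkl, Aldoa and Pkm were counted at mean levels of 1.44 to 19.0 CPM before TMM scaling and gave no call.

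Of the lactate genes, Slc16a1, the monocarboxylate transporter MCT1, fell in VAT. It stood at 294, 332, 212 and 335 CPM in lean and 204, 219.6, 179.9 and 207 CPM in obese VAT. Lean replicate 3 lay within the obese range, so the groups overlapped, and the log2 fold change was -0.53 ± 0.16 (SE, adjusted p = 0.0308). In SAT it stood at 249, 213, 172 and 314 CPM in lean and 263, 209.7, 226 and 245 CPM in obese mice, also overlapping. The VAT call was lost without lean replicate 2 or obese replicate 3 or 4 (-0.47, -0.48 and -0.54, adjusted p = 0.108, 0.102 and 0.0795), and without the 2 VAT libraries of lowest depth (-0.54, adjusted p = 0.064). Ldha, lactate dehydrogenase A, was counted in its leading entry at under 4 CPM in every library, and its VAT fold change of -0.91 ± 0.38 (SE, adjusted p = 0.141) gave no call.

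To ask whether VAT and SAT responded differently, the diet response of SAT was subtracted from that of VAT with the mouse in the model. Of the members, 3 responded lower in VAT and none higher, where 1.29% of all tested entries were called lower and 0.888% higher. These were Hk2, with a difference of -1.36 ± 0.24 (SE, adjusted p = 0.00245), Gbe1, with -0.88 ± 0.15 (SE, adjusted p = 0.00227), and Tkt, with -0.85 ± 0.19 (SE, adjusted p = 0.0153). Without obese replicate 2, 5 members were lower. At an unadjusted p under 0.05 edgeR gave 14 members lower and 0 higher, and DESeq2 called 5 lower and 0 higher. Of the 31 members, 28 had a difference below 0, beside 47.8% of all entries, and their median was -0.41, beside 0.03.

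The depots were also set side by side within each mouse. In lean mice Tkt and Gbe1 were higher in VAT than in SAT of the same animal in 4 of 4 mice, and Hk2 in 3 of 4. In obese mice Gbe1 and Hk2 were lower in VAT in 4 of 4, and Tkt was higher in VAT in 3 of 4. For Pygl and Pygb, which fell in both tissues, the difference was -0.12 ± 0.14 (SE, adjusted p = 0.766) and -0.11 ± 0.15 (SE, adjusted p = 0.796), and no difference in response was detected.

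**Figure D4:**
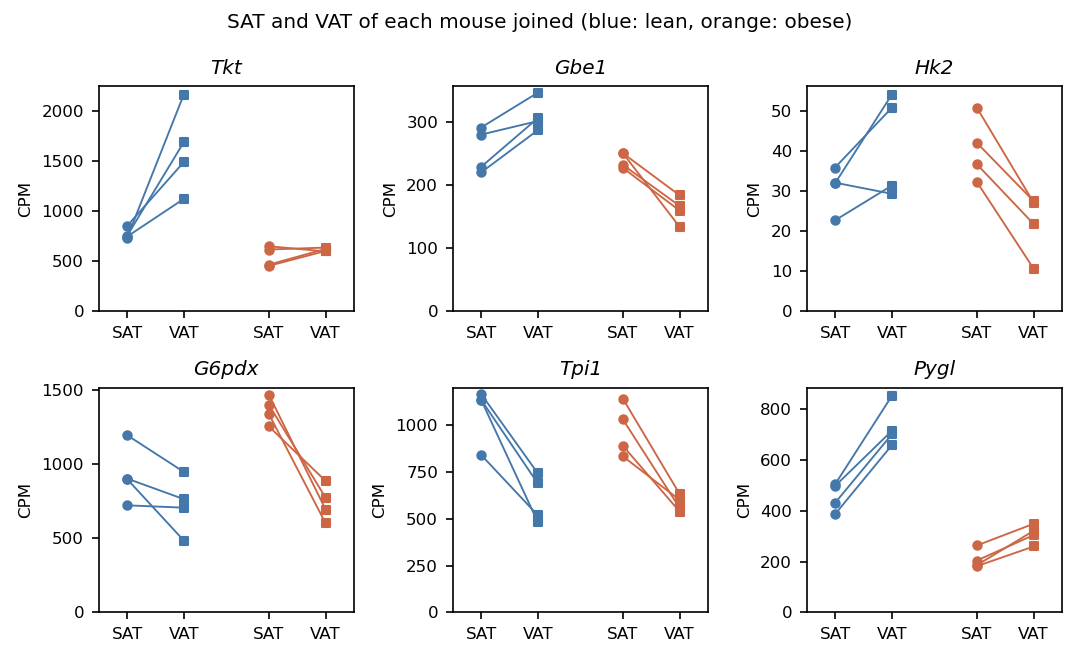
SAT and VAT levels of 6 members (vertical axes, CPM scaled by TMM, from 0) are joined for each mouse, lean in blue and obese in orange, circles for SAT and squares for VAT. The lines of Tkt and Gbe1 rise from SAT to VAT in lean mice, in obese mice those of Gbe1 fall in all 4 and those of Tkt rise in 3 and fall in 1, those of Pygl rise in both, and those of Tpi1 fall in both.

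Hk2 and Tkt were less firm than Gbe1. Without lean replicate 3 the Tkt difference was -0.80 (adjusted p = 0.069). The fit without the 2 VAT libraries of lowest depth also left the mouse out of the model. Its differences were -1.28 for Hk2 (adjusted p = 0.0702) and -0.73 for Tkt (adjusted p = 0.059). With all 16 libraries and no mouse in the model Hk2 gave -1.31 (adjusted p = 0.0725), so its loss cannot be assigned to the 2 libraries. Gbe1 was called under every alternative run.

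The 2 depots were then compared within each diet. In lean mice 6 members were higher in VAT than in SAT and 1 was lower, beside 7.98% of all entries higher and 6.84% lower. In obese mice 4 were higher and 8 lower, beside 15.9% and 13.5%. Without lean replicate 4, or without obese replicate 1 or 2, 2 members were lower in lean VAT, and without obese replicate 3, 2 were higher in obese VAT. The members' median log2 difference was 0.23 in lean mice (0.01 over all entries) and -0.30 in obese mice (0.04 over all entries). The lean and obese comparisons use separate mice, but each shares its libraries with the diet comparisons above.

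In lean mice, Tkt was higher in VAT by 1.04 ± 0.13 (SE, adjusted p = 5.29e-06), Pygm by 1.04 ± 0.25 (SE, adjusted p = 0.00505), Ugp2 by 0.80 ± 0.15 (SE, adjusted p = 0.000432) and Pygl by 0.69 ± 0.10 (SE, adjusted p = 2.94e-05), all on the log2 scale. The Ugp2 value is that of its leading entry. Its other entry gave no call, at -0.13 ± 0.22 (SE, adjusted p = 0.78), and its summed counts gave 0.59 (adjusted p = 0.00454). Pygb was higher by 0.47 ± 0.11 (SE, adjusted p = 0.00381) and Rpia by 0.55 ± 0.14 (SE, adjusted p = 0.00688). Tpi1 was the 1 lower member, at -0.82 ± 0.11 (SE, adjusted p = 1.02e-05), and was lower in VAT in 4 of 4 lean and 4 of 4 obese mice.

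Rpia, which makes ribose 5-phosphate, was called between depots in both diets and gave no call between diets. Its SAT levels were 37.6, 28.3, 37.2 and 37.5 CPM in lean and 29.7, 36.7, 32.9 and 29.5 CPM in obese mice. Its VAT levels were 67.5, 44.1, 52.0 and 44.7 CPM in lean and 47.0, 50.8, 46.2 and 54.3 CPM in obese mice, all above every SAT library. In obese mice the VAT excess was 0.62 ± 0.13 (SE, adjusted p = 0.00106).

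In obese mice the smallest adjusted p was that of G6pdx, lower in VAT at -0.90 ± 0.13 (SE, adjusted p = 1.06e-05). Tpi1 followed at -0.73 ± 0.11 (SE, adjusted p = 2.43e-05), Hk2 at -0.97 ± 0.17 (SE, adjusted p = 0.000119) and Gbe1 at -0.59 ± 0.11 (SE, adjusted p = 0.000227). Gys1 had -0.54 ± 0.11 (SE, adjusted p = 0.000621) and Eno1 -0.74 ± 0.15 (SE, adjusted p = 0.000786). Pygl stayed higher in VAT, at 0.57 ± 0.10 (SE, adjusted p = 0.000155), in 4 of 4 mice.

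The remaining calls in obese mice were Pgk1 and Pgd, lower in VAT, and Pygb and Pygm, higher. Pgk1 had -0.40 ± 0.12 (SE, adjusted p = 0.0119) and lost its call without obese replicate 3 (-0.38, adjusted p = 0.0508). Pgd, 6-phosphogluconate dehydrogenase, rests on an entry at under 3 CPM in every library, with -1.26 ± 0.45 (SE, adjusted p = 0.0397). Its call was lost without obese replicate 2, 3 or 4 (-1.31, -1.5 and -0.94, adjusted p = 0.109, 0.059 and 0.223). Pygb had 0.36 ± 0.11 (SE, adjusted p = 0.0148) and lost its call without obese replicate 3 (0.27, adjusted p = 0.115). Pygm had 0.66 ± 0.23 (SE, adjusted p = 0.0362) and lost it without obese replicate 3 or 4 (0.72 and 0.35, adjusted p = 0.0742 and 0.339), and its call in lean mice was lost without lean replicate 3 (0.81, adjusted p = 0.0679). Without the 2 VAT libraries of lowest depth, and without the mouse in the model, Pygm was called in neither diet (0.85 in lean and 0.68 in obese mice, adjusted p = 0.0699 and 0.0846), nor was Pgd in obese mice (-1.09, adjusted p = 0.083). With all 16 libraries and no mouse in the model, the obese calls of Pygm (0.62, adjusted p = 0.0931) and Pgd (-1.13, adjusted p = 0.0748) were lost as well.

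Isoform balance was tested as the log2 ratio of 2 related members within a library, 12 pairs in each of 2 tissues, with exact two-sided permutation tests over the 70 possible assignments. In 12 of the 24 tests a member of the pair had not passed the filter on low values. The smallest p that 4 against 4 allows is 0.0286, and at least 14 of the 24 tests would have to reach it to pass after Benjamini-Hochberg adjustment, so that no single ratio could pass. These ratios are therefore given as values, and 3 reached that exact p (adjusted p = 0.229). In VAT the Hk2 to Hk1 ratio was 2.59 ± 0.72 (SD, n = 4) in lean and 1.11 ± 0.82 in obese mice. The VAT Pygm to Pygl ratio went from -5.58 ± 0.36 to -4.45 ± 0.18 (SD, n = 4). The third, Hk3 to Hk1 in VAT, has Hk3 at 0 in every library and so follows Hk1 alone. The Pygl to Pygb ratio differed by -0.10 with diet in SAT and in VAT (exact permutation p = 0.4 and 0.429).

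Genes next to these routes were followed as a list of 82, of which 52 were tested. In SAT 4 rose and 3 fell, which is 7.69% and 5.77% of the 52 beside 6.21% and 4.84% of all tested entries, so these shares lay near the background. In VAT 12 fell, 23.1% beside 4.08%, and 0 rose, beside 6.84%. Among those with the smallest adjusted p in VAT were Pdha1, Dlat and Pdhx of the pyruvate dehydrogenase complex, which turns pyruvate into acetyl-CoA. Pdha1 had a log2 fold change of -0.80 ± 0.12 (adjusted p = 0.000101), Dlat -0.63 ± 0.10 (adjusted p = 0.000297) and Pdhx -0.51 ± 0.11 (adjusted p = 0.00513).

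In SAT the leading genes of that list were Pdk4, a kinase that switches pyruvate dehydrogenase off, which rose by 0.93 ± 0.21 on the log2 scale (adjusted p = 0.00518), and Ppp1r3a, a glycogen-targeting subunit typical of muscle, which rose from 0.237 ± 0.331 to 1.90 ± 1.1 CPM (SD, n = 4). Pdk3 fell, at -1.08 ± 0.30 (adjusted p = 0.02), as did a non-coding entry of Mlxipl, the gene of the carbohydrate response factor ChREBP, at -1.17 ± 0.27 (adjusted p = 0.00669). The response was lower in VAT than in SAT in 2 genes of the list, 3.85% of the 52 beside 1.29% of all tested entries, and higher in 0, beside 0.888%. The 2 were Dlat at -0.73 ± 0.14 (adjusted p = 0.00676) and a rarely counted entry of Gsk3b, the kinase that inhibits glycogen synthase, at -2.71 ± 0.69 (adjusted p = 0.0391).

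Between depots, 6 genes of the list were higher in VAT and 6 lower in lean mice, 11.5% each beside 7.98% and 6.84% of all tested entries. In obese mice 5 were higher, 9.62% beside 15.9%, and 13 were lower, 25% beside 13.5%. Stbd1, a glycogen-binding protein, was higher in VAT by 1.03 ± 0.16 in lean and 1.23 ± 0.16 in obese mice on the log2 scale. Pck1, which makes the glycerol precursor from pyruvate-derived carbon in fat, was higher by 0.82 ± 0.14 and 0.96 ± 0.14. Prps1, which uses ribose 5-phosphate, was lower in lean VAT by a log2 difference of -0.87 ± 0.12, and Pgm5 was higher there by 0.80 ± 0.16. Dlat was lower in obese VAT, at -0.96 ± 0.10.

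Markers of the cells in the tissue moved with the same comparisons. In bulk tissue fewer cells of a type and less RNA per cell cannot be told apart. The summed level of 9 adipocyte genes was 21930 to 34810 CPM in lean VAT and 15657 to 26441 CPM in obese VAT, and 4 of the 9 fell (Lipe, Adipoq, Plin1 and Cfd). The median log2 fold change of the 9 in VAT was -0.60, beside -0.53 for the 31 members, while the log2 ratio of the mean sums, in which Fabp4 and Lep hold most of the counts, was -0.37. In SAT the summed level was 41503 to 58186 CPM in lean and 37494 to 52382 CPM in obese mice, with a median log2 fold change of -0.19, a log2 ratio of the mean sums of -0.20, and 1 that fell (Cfd). Of 9 macrophage genes, 8 were tested and rose in VAT, where the sum of the 9 went from 2467 to 3225 CPM in lean to 5506 to 7848 CPM in obese mice. In SAT 6 of the 8 rose, and the sum went from 1408 to 2020 CPM to 2275 to 3222 CPM. Of 8 genes of lipid-associated macrophages, 7 were tested, all rose in VAT and 2 rose in SAT. In the difference of the diet response, 1 of the 9 adipocyte genes (Plin1) and 1 of 4 tested endothelial genes (Cldn5) were lower in VAT. In the same test 1 of the 8 macrophage genes (C1qb) and 4 of the 7 lipid-associated macrophage genes were higher. Their part in the members' differences was not tested.

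Divided by the adipocyte sum of the same library, Pygl and Pygb still did not overlap between diets in either tissue. Pygl stood at 20.6 to 32.0 per 1000 adipocyte CPM in lean VAT and 12.2 to 16.6 in obese VAT, and at 7.84 to 12.0 in lean SAT and 3.90 to 6.59 in obese SAT. Gys1 and Pfkfb1 remained lower without overlap in VAT on this scale and overlapped in SAT. Their log2 ratios of means on it were -0.61 and -1.58 in VAT and -0.28 and -0.62 in SAT. In SAT those of Pygl, Pygb and Tkt were -0.92, -0.82 and -0.28. G6pdx was higher without overlap in both tissues. Hk2, Gbe1, Tkt, Gys2, Ugp2, Pfkfb3, Ppp1r3c and Slc16a1 overlapped between diets in both tissues on this scale. The log2 ratio of the VAT means on this scale was -0.88 for Pygl and -0.74 for Pygb. It was -1.05 for Tkt, -0.95 for Pfkfb3, -0.54 for Gbe1, -0.53 for Hk2 and -0.51 for Gys2, and -0.27 for Ppp1r3c, -0.16 for Slc16a1 and -0.13 for Ugp2. The part of the cell makeup in the members' changes was not tested.

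**Figure D5:**
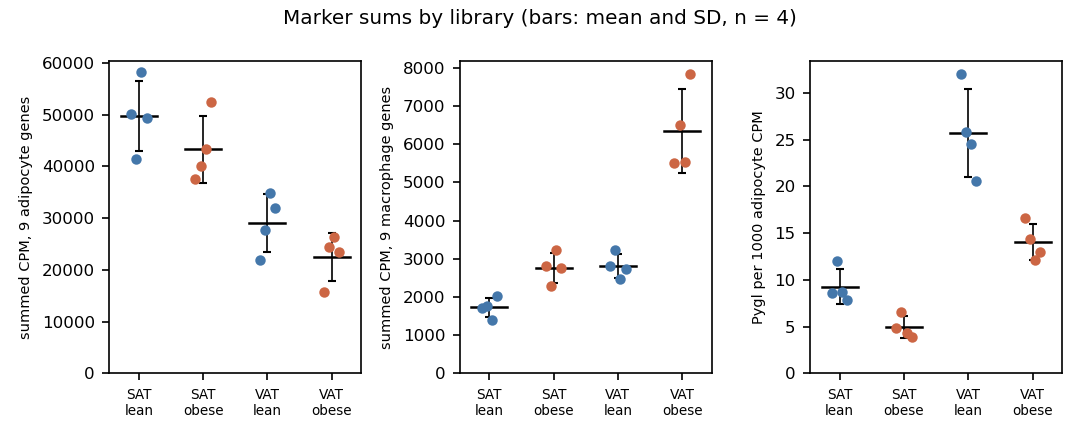
Summed CPM of 9 adipocyte genes (left), summed CPM of 9 macrophage genes (middle) and Pygl per 1000 adipocyte CPM (right) are shown per library, lean in blue and obese in orange, with bars for the mean and SD (n = 4). Macrophage sums of obese VAT lie above all other libraries, adipocyte sums overlap between diets, and the Pygl ratio does not overlap between diets in either tissue.

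Markers of other cells and tissues also moved with diet, beside the lower members. In VAT, of 4 B cell genes, Cd79a and Cd79b rose, by 1.27 and 1.66 on the log2 scale, and of 3 tested T cell genes Cd3g and Cd8a rose, by 1.25 and 1.75. The B cell sum was 29.1 to 220 CPM in lean and 176 to 318 CPM in obese VAT, and the T cell sum 9.51 to 15.0 and 22.9 to 48.9 CPM. Of 6 tested genes of intestinal epithelium, Zg16 and Slc5a1 fell, at log2 fold changes of -4.18 and -3.90, with the sum of the list at 13.2 to 53.1 CPM in lean and 16.2 to 18.8 CPM in obese VAT. Of 4 tested genes of brown or beige adipocytes, Ucp1 rose, by 4.51, and Dio2 fell, at -2.68, with sums of 37.7 to 81.7 and 31.3 to 47.6 CPM. Of 5 tested muscle genes Casq1 rose, by 1.77, while the median log2 fold change of the 5 was -0.45. Of 3 tested pancreas genes Cela1 rose, by 0.89, while the median of the 3 was -0.55. No gene of keratinocytes, mesothelium, endothelium, red cells or liver was called with diet in VAT. In SAT, where Pygl, Pygb, Gys1, Tkt and Pfkfb1 fell, the brown or beige sum went from 34.7 to 96.9 CPM in lean to 16.3 to 25.4 CPM in obese mice, without overlap. Of that list Dio2 and Cidea fell there, at log2 fold changes of -3.22 and -1.58, and Ucp1 rose, by 3.62. Of the 5 tested muscle genes in SAT, Tnnc2 and Myl1 fell, at -2.55 and -1.01, and Casq1 rose, by 1.1. Of the 3 tested pancreas genes Cela1 rose there, by 0.81. The part of these cells in the members' falls was not tested in either tissue.

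Cell markers also differed between depots. Of 9 adipocyte genes, 2 were lower in VAT than in SAT in lean mice and 5 in obese mice, and 0 were higher. Of 8 tested macrophage genes 5 were higher in VAT in lean and 8 in obese mice, and of 4 B cell genes 3 and 4, with 0 lower. The part of these cells in the members' depot differences was not tested. Other tissues were also compared between depots and libraries. The 16 skeletal muscle genes summed to 13.4 to 50.1 CPM over all libraries, with the fast troponin gene Tnnt3 at 0 in every one, and 5 of them were tested. Casq1 had the highest mean of the list over the 16 libraries, but in lean VAT its mean of 2.18 CPM lay below those of Myl1, Actn3 and Tnnc2. In lean mice Actn3 was higher in VAT than in SAT and Casq1 and Tnnc2 were lower, and in obese mice Actn3 and Atp2a1 were higher and Casq1 was lower, beside the higher Pygm in VAT. Their part in the Pygm difference was not tested. The 5 mesothelial genes summed to at most 1.4 CPM in SAT and to 194 to 483 CPM in VAT, so they separated the libraries labelled SAT from those labelled VAT. The 3 liver genes summed to 398 CPM in VAT of obese replicate 1 and to at most 51.1 CPM in the other VAT libraries, most of it Alb, while the SAT libraries held 77.4 to 229 CPM in lean and 119 to 135 CPM in obese mice. Alb was lower in VAT than in SAT in both diets. Without the mouse of obese replicate 1, 12 members were called lower in VAT, with Pygl, Pygb, Tkt, Gys1 and Gbe1 among them and Ugp2 and Ppp1r3c not.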

How the data were processed

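Poly(A) RNA was sequenced with a directional kit from 16 libraries, from lean and obese mice, 4 for each tissue and diet. The authors aligned paired reads to GRCm39 with HISAT2 2.2.0 and RefSeq annotation and counted them with HTSeq 0.13.5, and they deposited raw counts for each of 130343 entries, 1 per transcript and chromosome. They also deposited CPM, scaled to a total of 1000000 counts per library, which equalled CPM recomputed from the counts. The strand setting and the treatment of reads shared by transcripts are not given in the sources used here. Gene symbols were matched by RefSeq accession for 106811 entries (81.9%), gene positions and canonical transcript lengths came from GENCODE on GRCm39, and promoter sequences from RefSeq on GRCm38.p6.

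Counts were fitted with edgeR 4.0.16 (R 4.3.3) by the quasi-likelihood F-test with TMM factors, over the 13288 entries with CPM above 1 in at least 3 libraries, and p-values were adjusted over all of them by Benjamini-Hochberg. Levels are CPM scaled by TMM, but the mean levels of members over all 16 libraries are CPM without that scaling. The diet comparisons used 1 fit of all 16 libraries in 4 groups. The depot comparisons and the difference in response kept the mouse as a block, because each animal gave both tissues. Deviations from the group means correlated between SAT and VAT of 1 mouse at -0.009 to 0.173. The mouse is the replicate. Library totals of 1256082 to 16614407 counts set the precision, with a biological coefficient of variation of 0.211. On simulated counts with 200 of 13288 entries changed 4-fold, 81% were recovered in the SAT diet comparison, 81.5% in VAT and 50% in the difference in response. No tested member changed as much as 4-fold, and the simulated tissues of a mouse were drawn independently. These rates therefore do not give the recovery of changes of the members' size. Isoform ratios used log2(CPM + 0.5).

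The members and lists were chosen with earlier results of these data known. Values are given per library for members called in the diet comparisons or the difference in response (at most 12 each), or among the 8 of smallest adjusted p in a depot comparison, and at most 4 genes of the list of related genes are named per comparison, by adjusted p, of which some are not reported here. Alternatives were RLE factors, 2 other filters, DESeq2 1.42.0, limma 3.58.1 voom, edgeR without legacy, counts summed per gene, blocks, the tissue's own 8 libraries, and leaving out each mouse.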

Additional observations from a re-analysis of the deposited data

Results flagged for a closer look

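The diet response differed between VAT and SAT in 3 members, by the test of the difference itself: Hk2 at -1.36, Gbe1 at -0.88 and Tkt at -0.85 on the log2 scale. In 7 of 124 member groups of 4 libraries, 1 library lay far from the other 3 by Dixon's criterion, where chance at 1 in 20 gives 6.2. These were Aldoa in VAT of lean replicate 1 (5.10 CPM, the others 1.71 to 2.09), Fbp2 in VAT of obese replicate 1 (1.15 CPM, the others 6.49 to 7.31), and Pkm in SAT of obese replicate 1 (2.68 CPM, the others 1.27 to 1.31). Pygm in SAT of obese replicate 4 stood at 5.07 CPM (the others 10.2 to 10.3). In lean SAT, Tpi1 stood at 841 CPM (the others 1136 to 1166) and Rpia at 28.3 CPM (the others 37.2 to 37.6) in replicate 2, and Eno3 at 15.2 CPM (the others 18.7) in replicate 3. The Aldoa and Fbp2 values come from the 2 VAT libraries of lowest depth and rest on 8 and 3 counts. There 1 count is worth 0.796 and 0.445 CPM before TMM scaling.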

How the results depend on the processing

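No log2 fold change of a called member changed direction under any alternative. Values near 0 that were not called could do so, as G6pdx with diet in VAT, at 0.02 and, with counts summed per gene, -0.02. Of 698 values of single called members recomputed, 631 kept their call and 67 lost it, among them the SAT call of Pfkfb1 under 11 of 18 alternatives. Depot calls in lean mice numbered 2 lower in VAT in place of 1 with RLE factors, with no filter and with counts summed per gene, and those higher in obese VAT numbered 2 in place of 4 with no filter. The difference in response was called lower in 5 members with DESeq2, in place of 3. It was called in 1 without the 2 VAT libraries of lowest depth, a fit that also left out the mouse block. The cause was not tested. Over the fits that left out 1 mouse, counts ranged from 0 to 1 for members that rose in SAT, 3 to 5 that fell in SAT, 7 to 13 that fell in VAT, 5 to 7 higher and 1 to 2 lower in lean VAT than SAT, 2 to 4 higher and 7 to 10 lower in obese VAT, and 2 to 5 for a lower response in VAT. Members that rose in VAT and those with a higher response in VAT numbered 0 in each of these fits, and isoform ratios, which this design cannot call, had a count of 0 in all. With the replicate number as a block in the diet comparisons, 1 rose and 4 fell in SAT and 12 fell in VAT, with Pfkfb1 in SAT and Ugp2 in VAT not called. Lean and obese mice share only a number: deviations correlated at -0.0942 to 0.0545 in SAT and 0.0813 to 0.173 in VAT, and not every pair passed 0.1. Without the mouse block, 2 members had a lower response in VAT, and 3 were higher and 7 lower in obese VAT. Some members with several entries held few counts even in the deepest library, SAT of obese replicate 3. There the leading entries of Gapdh and Pkm had 4 and 19 counts. The part of depth in this was not tested.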
